A study of Saccharomyces cerevisiae with 14 samples.

Results

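The genes described here are the 34 genes of glycolysis, gluconeogenesis, glycerol synthesis and pyruvate metabolism among the 6387 open reading frames measured in *Saccharomyces cerevisiae* after treatment with 5-hydroxymethylfurfural (HMF), a sugar dehydration product that inhibits yeast growth. They were taken by systematic name, from hexokinase to pyruvate kinase and on to pyruvate decarboxylase, with the fructose 2,6-bisphosphate enzymes, the glycerol 3-phosphate dehydrogenases and phosphatases, both pyruvate carboxylases and the regulators *TYE7* and *GCR1*. Every member had a value on every array. Glycolysis splits glucose into pyruvate with a net gain of ATP, and a yeast growing on glucose sends most of that pyruvate through pyruvate decarboxylase to ethanol. Gluconeogenesis runs most of the same steps backwards and replaces the irreversible ones with its own enzymes. Glycerol synthesis branches off at the triose phosphates and uses up NADH, and pyruvate carboxylase feeds pyruvate into oxaloacetate for the TCA cycle and amino acids.

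Strain NRRL Y-12632 was grown aerobically in synthetic complete (SC) medium. HMF was added to a final 30 mM after a pre-culture, and the control cultures were grown the same way without HMF. Cells were taken 10, 30, 60 and 120 min later, in the lag phase, with 2 replicate experiments of each group at the first 3 times but a single array of each at 120 min. On each of the 14 arrays of long oligonucleotides the sample was labeled with Cy3 and untreated RNA of 0 min with Cy5. No array had the dyes swapped, so a dye effect of a gene cancels in HMF minus control but not in its level against 0 min, where it cannot be told apart from a change since 0 min. In bulk cultures, less transcript per cell and fewer cells with the transcript cannot be told apart either.

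All values are log2 ratios to 0 min, centered on the median of all genes of the same array. Centering moved the median gene. Leaving the centering out shifted HMF minus control by -0.67, -0.34, 0.24 and -0.0022 at the successive times, and by -0.19 in their mean, relative to the centered values. A difference given here is therefore a difference relative to the median gene. Where the values of a gene follow each other without a time, they run from 10 to 120 min, replicate 1 before replicate 2. Replicate arrays correlated across all genes with r between 0.39 and 0.65. The median SD of the 2 replicates was between 0.13 and 0.44 for the 34 members and between 0.16 and 0.32 for all genes, depending on the group. Signal intensities were not used here, so the precision of a single value is known only through replicates.

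**Figure D1:**
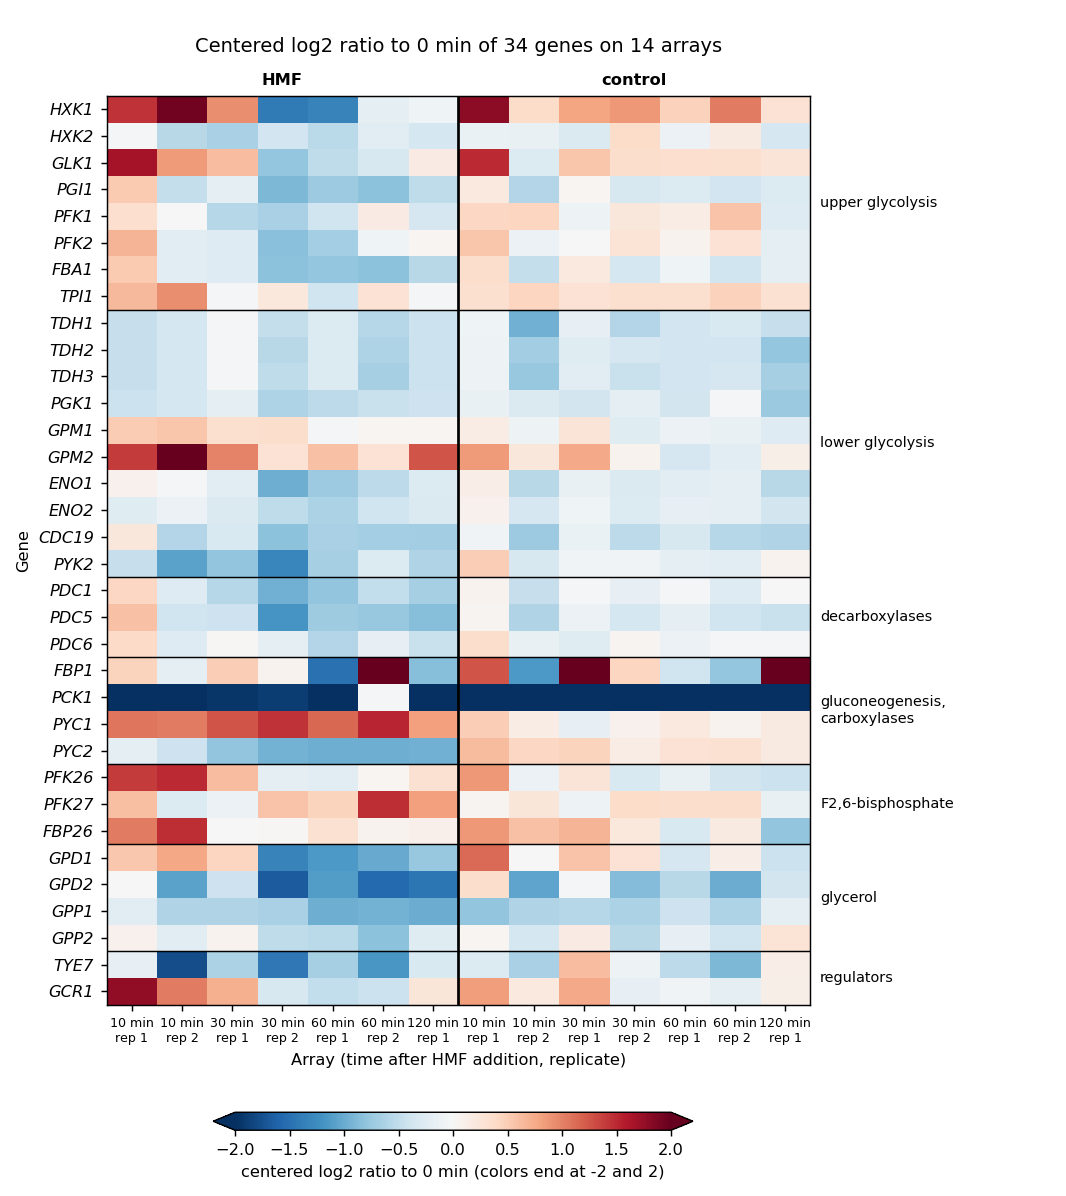
Centered log2 ratio to 0 min of the 34 genes (rows, grouped by role) on the 7 HMF and 7 control arrays (columns, by time and replicate), with red above and blue below 0 min and colors ending at -2 and 2. *PYC1* is red on every HMF array, *PYC2* is blue on every HMF array and red on every control array, and *PCK1* is below 0 on all 14 arrays.

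HMF minus control, averaged over the 4 times, passed an adjusted p of 0.05 (limma, Benjamini-Hochberg over all 6387 genes) for 3 of the 34 members. *PYC1* and *GPM2* were higher with HMF and *PYC2* was lower. Higher calls thus made up 5.88% of the members, beside 5.09% of all genes, and lower calls 2.94% of the members, beside 6.25% of all genes. At an unadjusted p under 0.05 the counts were 8 members and 1601 genes. The study lists *PYC1* and *GPM2* among genes it selected on these same arrays, so their calls are not independent evidence.

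Single times gave fewer calls. At 10 min no member passed limma's adjusted limit, beside 0.642% of all genes called higher and 1.5% called lower, and 6 of the 34 members had an unadjusted p under 0.05, as had 1132 of all 6387 genes. At 30 min *PYC1* was called higher, where 0.814% of all genes were, and *PYC2* lower, where 1.75% were. At 60 min *PYC2* alone was called lower, beside 0.407% of all genes, and no member higher, beside 0.564%, with 2 members and 753 genes at an unadjusted p under 0.05. At 120 min, where each group is 1 array and its spread is assumed to be that of the other groups, no member was called, beside 0.141% of all genes higher and 0.0626% lower, and 3 members and 482 genes had an unadjusted p under 0.05. For the change of the difference with time limma called 0% of all genes and none of the members. Unadjusted, 291 genes and 0 members were under 0.05 by that test, and the ordinary two-factor test called 327 genes and 1 member unadjusted and 0 adjusted.

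**Figure D2:**
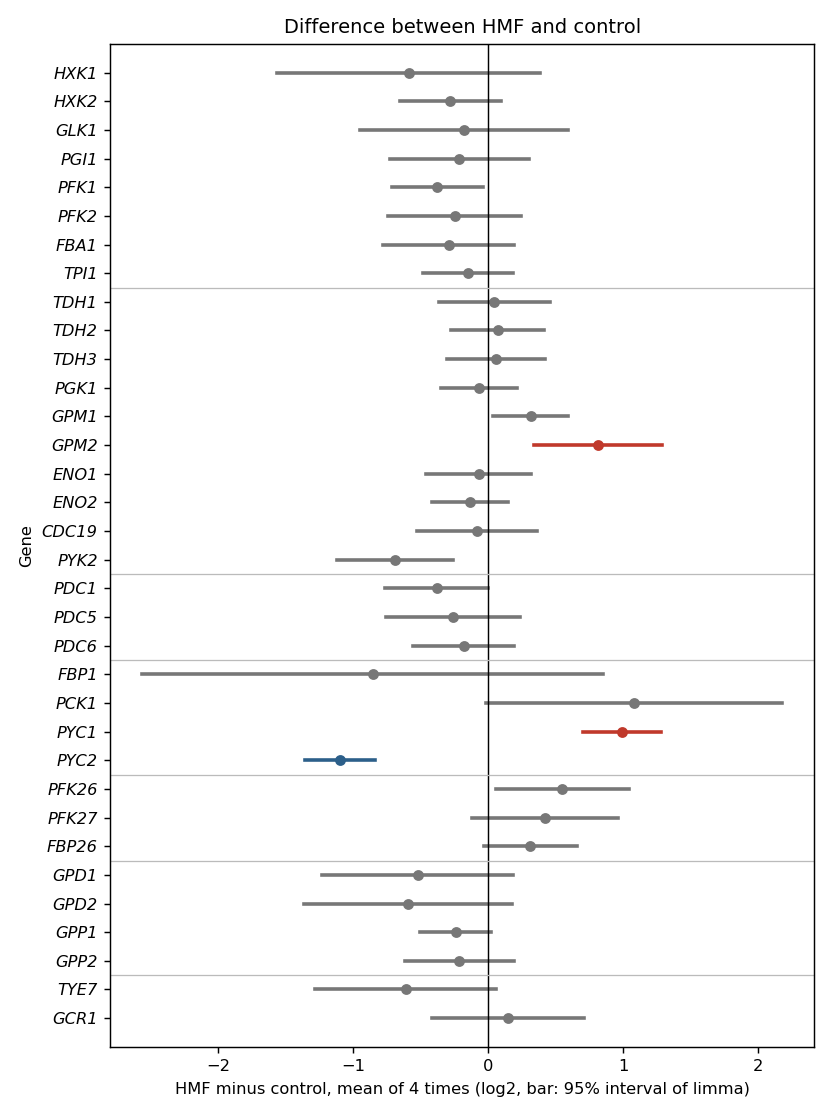
HMF minus control for each of the 34 genes, as the mean of the 4 times in log2 (points) with the 95% interval of the limma fit (bars), red for genes called higher, blue for genes called lower and gray for genes not called. *PYC1* and *GPM2* lie to the right of 0 and *PYC2* to the left, at 1.00, 0.81 and -1.10.

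The pyruvate carboxylases showed the largest called differences among the members, in opposite directions. *PYC1* (YGL062W) and *PYC2* (YBR218C) encode isoforms of the cytosolic enzyme that makes oxaloacetate from pyruvate. With HMF, *PYC1* stood at 1.08 and 1.04 after 10 min, 1.26 and 1.44 after 30 min, 1.14 and 1.53 after 60 min and 0.83 after 120 min. The control arrays gave 0.49 and 0.14 after 10 min, -0.17 and 0.08 after 30 min, 0.19 and 0.07 after 60 min and 0.18 after 120 min. Each HMF array exceeded all 7 control arrays, which held for 2.36% of all genes, and the lowest HMF value was that of 120 min. The mean difference was 1.00 ± 0.13 (SE), a 1.99-fold higher ratio with HMF, with an adjusted p of 0.00204 by limma. By time it was 0.74, 1.39, 1.20 and 0.65. On the deposited scale the mean difference was 0.80 with an adjusted p of 0.262 by limma, and the arrays overlapped, since the 10 min control arrays lay at 0.78 and 1.44 there and 1 of the HMF arrays of 10 min at 0.72.

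*PYC2* went the other way. With HMF it stood at -0.18 and -0.42 after 10 min, -0.79 and -0.94 after 30 min, -0.97 and -0.98 after 60 min and -0.97 after 120 min. On control arrays it was at 0.64 and 0.42 after 10 min, 0.45 and 0.15 after 30 min, 0.28 and 0.31 after 60 min and 0.18 after 120 min. Each HMF array was lower than any control array, as for 3.84% of all genes, and the HMF arrays of 10 min were the highest of theirs. The mean difference was -1.10 ± 0.11 (SE), or 2.15-fold lower with HMF, with an adjusted p of 0.00105 by limma. The 4 times gave -0.83, -1.17, -1.27 and -1.14. *PYC2*, whose group means all lay within 2-fold of 0 min, was the member still called on the deposited scale, with a mean difference of -1.29 and an adjusted p of 0.0348 by limma, although its arrays overlapped there. Both carboxylase calls held whichever of the 12 replicated arrays was dropped, with adjusted p between 0.00386 and 0.00967 for *PYC1* and between 0.0028 and 0.00648 for *PYC2* by limma.

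The calls of single times were less steady. The call of *PYC1* at 30 min was lost in 6 of the 12 fits with 1 array left out, namely each fit without a 30 min array or without a control array of 60 min, with adjusted p up to 0.153 by limma. The calls of *PYC2* at 30 and at 60 min were lost in 8 of the 12, whenever a 30 min or a 60 min array was left out, with adjusted p up to 0.174 and 0.271 by limma. With replicate number as a block, *PYC2* was also called at 10 min (adjusted p 0.0319, limma) and *PYC1* at 60 min (adjusted p 0.0355, limma). A block for each time apart left neither called at 60 min, and *PYC2* not called at 10 min (adjusted p 0.0513, limma).

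Because both genes sit on the same array, the difference of their log2 ratios does not depend on the centering. *PYC1* minus *PYC2* ranged from 1.26 to 2.50 on the 7 HMF arrays, with a median of 2.06, and from -0.61 to 0.00 on the 7 control arrays, with a median of -0.14. The groups did not overlap, but that follows from the separation of each gene after centering and is no further support. The mean over times differed by 2.10 in log2, so the ratio of *PYC1* to *PYC2* transcript relative to 0 min was 4.28-fold higher with HMF. The genes are close copies, and whether the oligonucleotides of the array tell such copies apart was not tested.

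**Figure D3:**
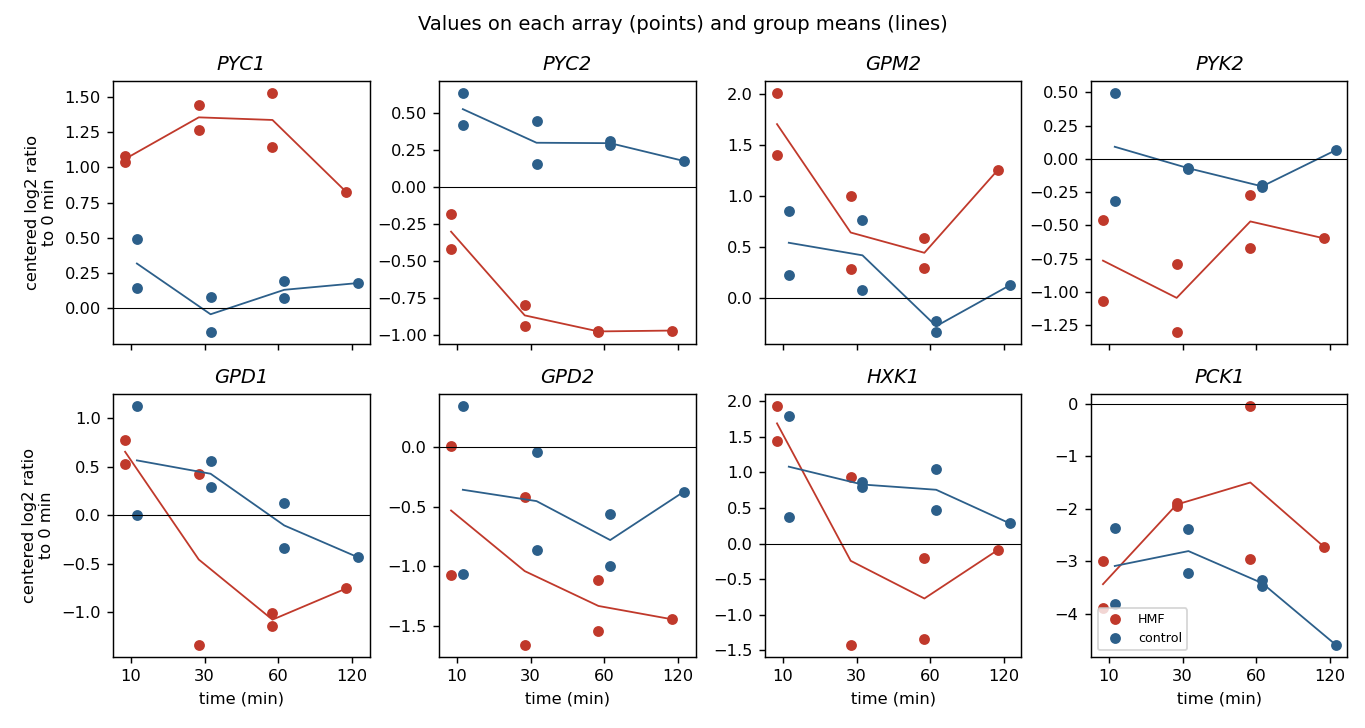
Centered log2 ratio to 0 min of 8 genes on each array (points, red HMF and blue control) with the group means (lines) at 10, 30, 60 and 120 min, drawn at equal steps. *PYC1* and *PYC2* separate at all 4 times in opposite directions, whereas the replicates of *HXK1*, *GPD1*, *GPD2* and *PCK1* lie far apart in several groups.

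In lower glycolysis, 1 of 10 genes was called, and the median of the mean differences was -0.01, beside 0.00 for all genes. The called gene was *GPM2* (YDL021W), a homolog of the phosphoglycerate mutase gene *GPM1* whose product adds little or no mutase activity. With HMF it stood at 1.40 and 2.01 after 10 min, 1.00 and 0.28 after 30 min, 0.59 and 0.29 after 60 min and 1.26 after 120 min. Its control values were 0.85 and 0.23, then 0.76 and 0.07, then -0.34 and -0.23, and 0.12 after 120 min. The groups overlapped at 30 min and were apart at the other times. Averaged over times HMF was higher by 0.81 ± 0.21 (SE), or 1.76-fold, with an adjusted p of 0.0388 by limma. By time the differences were 1.17, 0.22, 0.72 and 1.14. This call was not steady. It was lost on the deposited scale (0.62, adjusted p 0.406, limma), after quantile normalization (0.75, adjusted p 0.0669, limma), without the 120 min arrays, and in 8 of 12 fits with 1 array left out, being kept only without HMF replicate 1 of 10 min, HMF replicate 2 of 30 min, or control replicate 1 of 10 or 30 min.

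*GPM1* (YKL152C), the mutase that glycolysis relies on, stood with HMF at 0.51 and 0.55 after 10 min, 0.32 and 0.36 after 30 min, -0.02 and 0.04 after 60 min and 0.03 after 120 min. Its control values were 0.14 and -0.10, 0.26 and -0.24, -0.11 and -0.15, and -0.26. HMF was above control at each time. The mean difference of 0.32 ± 0.12 (SE) did not pass (adjusted p 0.146, limma).

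The pyruvate kinase genes differed from each other in their values. *CDC19* (YAL038W) encodes the main enzyme of growth on glucose, and *PYK2* (YOR347C) a minor isoform that is expressed when glycolytic flux is low. *PYK2* stood with HMF at -0.46 and -1.07 after 10 min, -0.79 and -1.30 after 30 min, -0.67 and -0.27 after 60 min and -0.60 after 120 min. In the control it stood at 0.50 and -0.31, then -0.07 and -0.07, then -0.20 and -0.21, and 0.07 after 120 min. At each time both HMF values were below the control values, although across times control 10 min replicate 2 was below HMF 60 min replicate 2. Its mean difference was -0.69 ± 0.19 (SE), 1.61-fold lower with HMF, and missed the limit with an adjusted p of 0.0509 by limma. The same-numbered replicates of a time varied together, and with the replicate number as a block the adjusted p was 0.0327, or 0.0187 with its own block for each time (limma). *PYK2* also passed without HMF 10 min replicate 1 or without control 10 min replicate 2, the latter with the smallest adjusted p of these fits, 0.026 by limma.

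*CDC19* ranged from -0.82 to 0.22 with HMF and from -0.73 to -0.06 in the control, and its mean difference was -0.084 ± 0.19 (SE; adjusted p 0.848, limma). Its groups overlapped widely. Within arrays, *CDC19* minus *PYK2* had a median of 0.48 with HMF and -0.41 in the control, with ranges of -0.41 to 0.68 and -0.66 to -0.06 that overlapped.

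*TDH1* (YJL052W), *TDH2* (YJR009C) and *TDH3* (YGR192C), the glyceraldehyde 3-phosphate dehydrogenase genes, had mean differences of 0.047, 0.070 and 0.058, and none was called. All 3 were below 0 on all 14 arrays, as was *PGK1* (YCR012W), phosphoglycerate kinase. The sign of the small *TDH* differences turned on the deposited scale, to -0.15, -0.12 and -0.14. The values of the *TDH* genes were nearly identical on some arrays. On 7 of the 14 arrays, 5 of HMF and 2 of control, all 3 lay within 0.02 log2 of each other, and on the remaining arrays they spread over up to 0.32. On HMF replicate 2 of 10 min, for example, *TDH3* stood at -0.67 as deposited, and the range over the 3 genes was 0.000488. *PGK1* joined them within 0.02 on 2 HMF arrays. *TEF1* and *TEF2*, which encode the same translation elongation factor and are not members, were looked at after the values were seen, and they lay within 0.02 of all 3 *TDH* genes on 5 arrays, 3 of HMF and 2 of control. Most of these transcripts are among the most abundant of growing yeast, and the *TDH* genes are close copies. Signal intensities and saturation marks were not used here, so whether either bears on the coincidence was not tested. The values of these genes on those arrays are not given here as separate measurements of each copy.

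**Figure D4:**
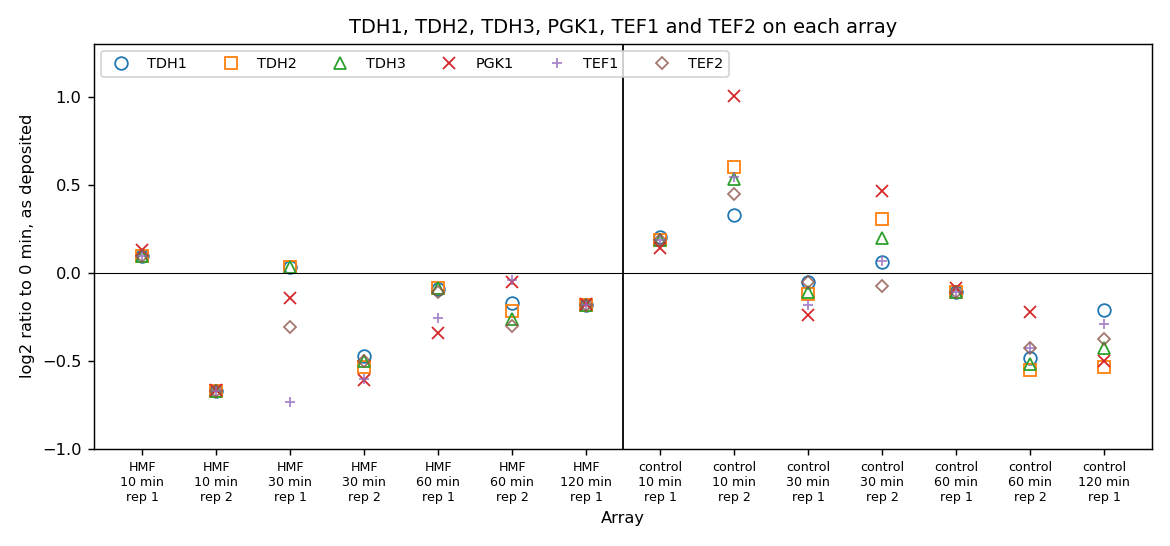
Deposited log2 ratio to 0 min (not centered) of *TDH1*, *TDH2*, *TDH3*, *PGK1*, *TEF1* and *TEF2* on each of the 14 arrays, HMF on the left and control on the right. The *TDH* symbols fall within 0.02 on 7 arrays, with *TEF1* and *TEF2* on top of them on 5, and spread by up to 0.32 on others.

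The other genes of lower glycolysis were close to the median gene. The enolase genes *ENO1* (YGR254W) and *ENO2* (YHR174W) had mean differences of -0.071 and -0.14, and *PGK1* had -0.067. The signs of *ENO1*, *PGK1* and *CDC19* turned after quantile normalization, to 0.039, 0.088 and 0.10.

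The genes of hexose phosphorylation and upper glycolysis were all on the lower side, and none was called. The median of the 8 mean differences was -0.27, with a range of -0.59 to -0.15, beside 0.00 over all genes, and 1 of them, *PFK1*, had an unadjusted p under 0.05. At 30 and 60 min all 8 were below 0 on both scales, with medians of -0.54 and -0.52, while 51.8% and 48.6% of all genes were below 0 after centering. At 10 min 6 of the 8 were above 0, and none was on the deposited scale, where 5668 of all 6387 genes were below 0. *PFK1* (YGR240C) and *PFK2* (YMR205C), subunits of phosphofructokinase, had mean differences of -0.38 ± 0.15 (SE; adjusted p 0.157, limma) and -0.25 ± 0.22. *FBA1* (YKL060C), aldolase, had -0.29, *PGI1* (YBR196C), phosphoglucose isomerase, -0.21 (-0.089 without HMF replicate 2 of 10 min and -0.34 without replicate 1), and *TPI1* (YDR050C), triose phosphate isomerase, -0.15. *HXK2* (YGL253W), the main hexokinase on glucose and a player in glucose repression, had -0.28. None of these differences passed the test.

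The other sugar kinases, *HXK1* (YFR053C) and glucokinase *GLK1* (YCL040W), both repressed by glucose, were the most variable of this group. *HXK1* stood with HMF at 1.44 and 1.93 after 10 min, 0.94 and -1.42 after 30 min, -1.34 and -0.20 after 60 min and -0.09 after 120 min. Its control values were 1.78 and 0.37, 0.79 and 0.87, 0.47 and 1.04, and 0.28. From 60 min on the HMF values were below every control value, but the replicates of HMF at 30 min were on opposite sides of 0. *HXK1* thus differed by -0.59 ± 0.43 (SE; adjusted p 0.455, limma), with 0.61 at 10 min and -1.52 at 60 min. It was -0.29 without HMF replicate 2 of 30 min and -0.88 without replicate 1. *GLK1* ranged from -0.77 to 1.66 with HMF and from -0.28 to 1.49 in the control, with a mean difference of -0.18 ± 0.34 that turned to 0.042 without control replicate 1 of 10 min.

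The pyruvate decarboxylases make acetaldehyde, the step before ethanol. All 3 mean differences were below 0, at -0.38 for the major isoform *PDC1* (YLR044C), -0.26 for *PDC5* (YLR134W) and -0.18 for the minor isoform *PDC6* (YGR087C), and none was called. The adjusted p of *PDC1* was 0.198 by limma. At 60 and 120 min all 3 were below 0 on both scales, with medians of -0.44 and -0.41.

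Taking the 21 enzymes from hexokinase to pyruvate decarboxylase in one count, 16 had a mean difference below 0. By time, 7, 16, 19 and 12 of them were below 0. Over all 34 members the mean difference was below 0 for 23, and its median was -0.18. Of all 6387 genes, 3189 had a mean difference below 0. The counts at single times depended on the scale, as on the deposited one 30, 32, 21 and 19 of the 34 members were below 0 at the 4 times, against 11, 25, 26 and 19 after centering. All genes moved with the scale too. Of the 6387, 5668, 4826, 1785 and 3109 were below 0 as deposited, and 3170, 3309, 3107 and 3090 after centering.

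**Figure D5:**
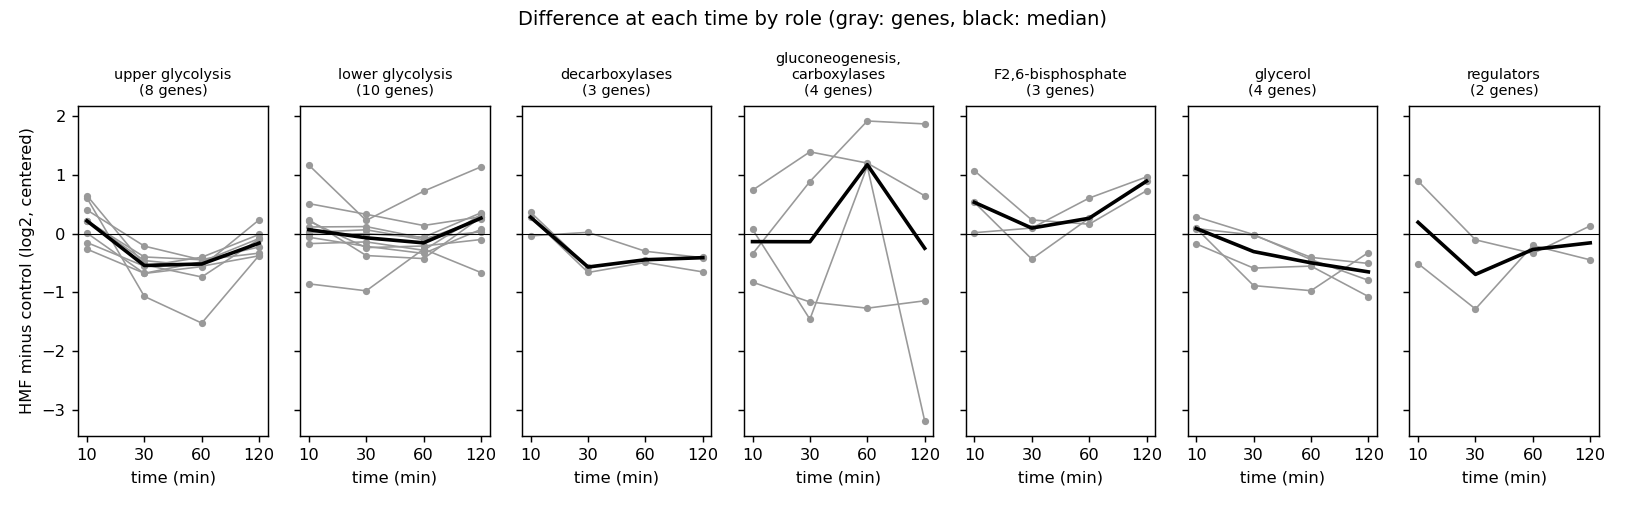
HMF minus control in centered log2 at 10, 30, 60 and 120 min (equal steps) for each gene (gray) and the median of its group (black), in 7 groups by role. The medians of upper glycolysis and of the decarboxylases are above 0 at 10 min and below 0 at 30 and 60 min, that of glycerol synthesis falls from 0.09 to -0.65, and the gray lines of gluconeogenesis and the carboxylases run far apart.

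The gluconeogenic genes had the widest spread between replicates. *PCK1* (YKR097W) encodes phosphoenolpyruvate carboxykinase, which turns oxaloacetate into phosphoenolpyruvate, and is strongly repressed by glucose. With HMF it stood at -3.88 and -2.99 after 10 min, -1.94 and -1.89 after 30 min, -2.96 and -0.04 after 60 min and -2.72 after 120 min. Control arrays gave -2.36 and -3.82, -2.38 and -3.23, -3.35 and -3.48, and -4.59. HMF was above control at 30, 60 and 120 min and overlapped with it at 10 min. HMF minus control averaged 1.08 ± 0.48 (SE), 2.12-fold higher with HMF, and did not pass (adjusted p 0.207, limma). HMF replicate 2 of 60 min stood apart from all other arrays. Without it the difference was 0.72, and without its partner, HMF replicate 1 of 60 min, it was 1.45 and passed with an adjusted p of 0.0282 by limma. Against 0 min *PCK1* was below 0 on all 14 arrays. Its control level, averaged over times, was -3.48, or 11.1-fold below 0 min, and ranked 9 from the lowest of all 6387 genes, and its HMF level of -2.39 ranked 44. A dye effect of this gene cannot be told apart from a fall since 0 min.

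*FBP1* (YLR377C) encodes fructose 1,6-bisphosphatase, the gluconeogenic counterpart of phosphofructokinase. Its HMF values were 0.44 and -0.19 after 10 min, 0.49 and 0.06 after 30 min, -1.49 and 2.60 after 60 min and -0.85 after 120 min. Its control values were 1.26 and -1.15, 3.03 and 0.44, -0.41 and -0.78, and 2.34. Replicate 1 minus replicate 2 was -4.09 with HMF at 60 min, and the groups overlapped. HMF minus control averaged -0.86 ± 0.75 (SE; adjusted p 0.543, limma), and -1.37 without HMF replicate 2 of 60 min and -0.35 without replicate 1. The array that was high for *PCK1*, HMF replicate 2 of 60 min, was also the highest HMF array for *FBP1*, and what sets it apart was not tested.

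The fructose 2,6-bisphosphate enzymes set the level of the metabolite that activates phosphofructokinase and inhibits fructose 1,6-bisphosphatase. All 3 mean differences were above 0 on both scales and none was called. *PFK26* (YIL107C), a 6-phosphofructo-2-kinase, had 0.55 ± 0.22 (SE; adjusted p 0.154, limma), with 1.40 and 1.49 on the HMF arrays of 10 min against 0.86 and -0.12 on the control arrays. *PFK27* (YOL136C), the other kinase, stood with HMF at 0.60 and -0.27, then -0.12 and 0.58, then 0.44 and 1.47, and 0.82 after 120 min. Control arrays gave 0.06 and 0.24, -0.10 and 0.37, 0.35 and 0.36, and -0.15. HMF was above control at 60 and 120 min and overlapped with it earlier. *PFK27* thus differed by 0.42 ± 0.24 (SE; adjusted p 0.325, limma). *FBP26* (YJL155C), the phosphatase that removes the metabolite, had 0.31 ± 0.15 (adjusted p 0.248, limma), with -0.43 at 30 min and 0.89 after 120 min.

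The genes of glycerol synthesis were lower with HMF by value, and none passed the test. The median of the 4 mean differences was -0.38, and all 4 genes were below 0 at 30, 60 and 120 min on both scales. *GPD1* (YDL022W) encodes the glycerol 3-phosphate dehydrogenase of the osmotic response. With HMF it stood at 0.53 and 0.78 after 10 min, 0.42 and -1.34 after 30 min, -1.14 and -1.01 after 60 min and -0.76 after 120 min. Control arrays gave 1.13 and 0.01, 0.57 and 0.29, -0.34 and 0.13, and -0.43. From 60 min on all HMF values were below all control values. *GPD1* thus differed by -0.52 ± 0.31 (SE; adjusted p 0.351, limma), and by -0.30 without HMF replicate 2 of 30 min and -0.74 without replicate 1.

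*GPD2* (YOL059W) encodes the isoform tied to redox balance under low oxygen. With HMF it stood at 0.01 and -1.07, -0.42 and -1.66, -1.12 and -1.55, and -1.45 after 120 min. Its control values were 0.35 and -1.06, -0.04 and -0.86, -0.56 and -0.999, and -0.37. In all 6 groups with replicates, replicate 1 was above replicate 2, and each HMF array was below the control array of the same number and time. The mean difference was -0.60 ± 0.34 (SE) with an adjusted p of 0.327 by limma. With replicate number as a block the adjusted p was 0.0405, and with its own block for each time 0.0205 (limma), so *GPD2* was called lower only where replicates were taken as pairs.

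*GPP1* (YIL053W) and *GPP2* (YER062C) encode the glycerol 3-phosphate phosphatases. *GPP1* stood with HMF at -0.22 and -0.60, -0.61 and -0.64, -0.98 and -0.94, and -0.99, and in the control at -0.79 and -0.60, -0.57 and -0.64, -0.41 and -0.62, and -0.20. At 10 min its HMF values were above those of the control, by 0.29 in the mean, although the replicate 2 values nearly coincided. The groups overlapped at 30 min, and from 60 min on the HMF values were below all control values of their time. *GPP2* stood with HMF at 0.09 and -0.23, 0.07 and -0.51, -0.54 and -0.83, and -0.24, and in the control at 0.04 and -0.35, 0.16 and -0.55, -0.16 and -0.40, and 0.27. The mean differences were -0.24 ± 0.12 and -0.21 ± 0.18 (SE; adjusted p 0.239 and 0.523, limma).

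Of the regulators, *TYE7* (YOR344C), a basic helix-loop-helix activator of glycolytic genes, stood with HMF at -0.17 and -1.78, -0.63 and -1.42, -0.66 and -1.16, and -0.31. In the control it stood at -0.28 and -0.64, 0.61 and -0.10, -0.52 and -0.90, and 0.14. HMF was below control at 30 and 120 min, and the groups overlapped at 10 and 60 min. The mean difference was -0.61 ± 0.30 (SE; adjusted p 0.246, limma), with -1.28 at 30 min. *GCR1* (YPL075W), the main activator of glycolytic genes, had a mean difference of 0.15 ± 0.25 that turned to -0.046 on the deposited scale. At 10 min its HMF arrays stood at 1.78 and 1.04 and its control arrays at 0.83 and 0.20. That difference of 0.90 was called only with its own replicate block for each time (adjusted p 0.0477, limma, beside 0.125 with 1 block over all times and 0.348 with none).

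Against 0 min, 7 of the 34 members had a group mean at least 2-fold above it with HMF at 10 min, namely *HXK1*, *GLK1*, *GPM2*, *PYC1*, *PFK26*, *FBP26* and *GCR1*, where 8.69% of all genes did. In the control at 10 min *HXK1* alone did, where 3.21% of all genes did. This order turned without the centering, where 7 members were that high with HMF at 10 min and 12 in the control. The share of all genes at this level was not counted on that scale. The array medians there were 0.56 and -0.32 with HMF at 10 min and 0.28 and 1.29 in the control, so the counts of members carry these shifts. At 30 and at 60 min *PYC1* was the only member at this level with HMF, and at 120 min it was *GPM2*. The shares of all genes that high with HMF were 6.404%, 6.623% and 6.419% at 30, 60 and 120 min. At least 2-fold below 0 min with HMF were *PCK1* at all 4 times, *GPD2* from 30 min on, *PYK2* and *TYE7* at 30 min and *GPD1* at 60 min. Of all genes, 12.7%, 7.62%, 5.76% and 6.98% were that low with HMF at the successive times. In the control *PCK1* was the only member below, at all 4 times, and *FBP1* the only one above at 30 and 120 min. The control shares of all genes were 4.10%, 3.16%, 3.04% and 5.25% below at the successive times. Above, they were 3.80% at 30 min and 4.59% at 120 min. The median of the members' group means went from 0.07 at 10 min to -0.41, -0.47 and -0.38 with HMF, and from -0.02 to -0.06, -0.20 and -0.23 in the control.

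Replicates of single members could differ widely. The gap exceeded 1 log2 unit for 6 members in the control at 10 min and for 5 with HMF at 30 min. It did so for 3 with HMF at 10 min, 4 with HMF at 60 min and 1 in the control at 30 min, and for none in the control at 60 min. Replicate 1 was the higher one for 30 of the 34 members in the control at 10 min and for 27 with HMF at 30 min. Gaps over 1 recurred in more than 1 group for *HXK1*, *GPD2*, *FBP1*, *GLK1*, *GPD1* and *PCK1*.

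Genes around these pathways were counted in 5 further lists of 35 genes. In the mean of the 4 times none of them was called higher. By that mean no gene was called of 6 for glycerol use and transport, of 7 for the breakdown of fructose 1,6-bisphosphatase protein or of 5 homologs of glycolytic enzymes. Of 9 genes of pyruvate dehydrogenase and pyruvate transport, 1 was called lower in the mean, *MPC2* (YHR162W), a subunit of the mitochondrial pyruvate carrier. *MPC2* ranged from -0.70 to -0.05 with HMF and from 0.25 to 0.54 in the control. These ranges did not overlap, and 3.84% of all genes were separated in this direction. *MPC2* had a mean difference of -0.92 ± 0.12 (SE; adjusted p 0.00206, limma). Of 8 further regulators, 1 was called lower in the mean, *RAP1* (YNL216W), a DNA binding protein that acts with Gcr1p at glycolytic promoters and also binds ribosomal protein genes and telomeres. *RAP1* ranged from -1.14 to -0.62 with HMF and from -0.09 to 0.17 in the control, and its mean difference was -0.91 ± 0.11 (SE; adjusted p 0.00158, limma). Its ranges were separated too, so it also belonged to that 3.84% of all genes. *RAP1* was also called lower at 30 and at 60 min, by -1.07 and -1.22, where 1.75% and 0.407% of all genes were. Neither of these calls held on the deposited scale (-1.41 and -0.97, adjusted p 0.509 and 0.999, limma). With a replicate block for each time the 60 min call was lost too (adjusted p 0.0519, limma). The mean differences of *MPC2* and *RAP1* were not called on the deposited scale either, with -1.11 and -1.10 and adjusted p of 0.0801 and 0.0961 by limma. The study itself lists *RAP1* among repressed regulators from these same arrays, so its call is not independent evidence. *JEN1* (YKL217W), a plasma membrane transporter of lactate and pyruvate that is repressed by glucose, is outside the rule for naming and was singled out after its values were seen, as the 1 gene of these lists called higher at a single time. After 10 min it stood at 2.20 and 1.60 with HMF and at -0.38 and 0.044 in the control, and at the later times no HMF array was above the control arrays of its time. The difference at 10 min was 2.07 ± 0.33 (SE), 4.19-fold higher with HMF, with an adjusted p of 0.0242 by limma. It was not called on the deposited scale (1.40, adjusted p 0.296, limma), nor in 6 of the 12 fits with 1 array left out, where the adjusted p reached 0.0959 by limma.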

How the data were processed

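RNA of 14 yeast samples was compared with 0 min RNA on 2-color arrays of long oligonucleotides. The authors scanned with GenePix, subtracted background from median signals, inspected single spots and scaled slides by the spike-in *CAB*, then selected genes by a two-factor analysis of variance and a fold criterion. The values deposited by the authors are log2 ratios of test over reference, 1 per open reading frame and array, with no centering; how the spots printed in duplicate were combined is not stated. No coordinates were used, and symbols came from RefSeq by systematic name (5227 IDs had one).

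Each array was centered on its median. The means of the 8 groups were fitted with limma 3.58.1 in R 4.3.3 (lmFit, eBayes; 6 residual and 2.53 prior degrees of freedom). P-values were adjusted by Benjamini-Hochberg over all 6387 genes, and the limit was 0.05. The fit was tested on simulated data with independent arrays, so that test does not cover same-numbered replicates that vary together. Groups and replicate numbers came from the sample titles. Across genes, replicate 1 minus replicate 2 correlated between HMF and control with r of 0.31, 0.28 and 0.17 at 10, 30 and 60 min, all over 0.1, so same-numbered arrays were also fitted as pairs; over all 15 pairs of groups r ran from 0.02 to 0.36 and was over 0.1 in 11. Replicates are the study's replicate experiments.

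The 34 members and the lists were chosen with earlier results of these data known. All members are named, as are the called genes of the further lists. Members called in the main fit are given with each array's value. So are *GPM1*, *PYK2*, *GPD1*, *GPD2*, *GPP1*, *GPP2*, *HXK1*, *PFK27*, *TYE7*, *FBP1* and *PCK1*, whereas *CDC19* is given by its ranges. Alternatives were the deposited scale, quantile normalization, both replicate blocks, a 2-fold criterion, leaving out 120 min or each replicated array, and the methods' two-factor test. Sequences were not used here.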

Additional observations from a re-analysis of the deposited data

How the results depend on the processing

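With 2 arrays per group, 1 at 120 min and no signal intensities, differences small beside the replicate spread could go uncalled. The count over all genes for the mean of the 4 times was 724 (325 higher, 399 lower), and that over the members was 3. On the deposited scale these were 118 (25 higher, 93 lower) and 1, and the counts of all genes at 10, 30, 60 and 120 min were 43, 17, 12 and 1 (from 137, 164, 62 and 13), with 5 genes for the change with time and 0 members at 30 and at 60 min. After quantile normalization the counts at 10, 30 and 120 min were 10, 23 and 7, with 0 members at 30 min. With the replicate block the counts of all genes were 1077 for the mean and 456, 335 and 172 at 10, 30 and 60 min, and those of the members 5, 1, 2 and 2. With the replicate block within each time the members' counts were 5 for the mean, 1 at 10 min and 0 at 60 min, and the counts of all genes were 286 at 10 min, 26 at 60 min and 0 at 120 min. Under both blocks *PYK2* (-0.69) and *GPD2* (-0.60) joined the members called lower, and no other call of a member's mean difference changed. The two-factor test, unadjusted, called 1575 genes and 7 members for treatment and 327 genes and 1 member for the interaction; adjusted, it called 688 genes and 2 members for treatment. The 2-fold criterion left 559 genes and 2 members, losing *PYC2*, and leaving out 120 min gave 754 genes and 2 members, losing *GPM2*.

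When 1 of the 12 replicated arrays was dropped, the counts of all genes ran from 497 to 726 for the mean, 11 to 111 at 10 min, 6 to 124 at 30 min, 1 to 50 at 60 min and 1 to 6 at 120 min, and those of the members from 2 to 4 for the mean, 0 to 2 at 30 min and 0 to 1 at 60 min. *GPM2* ran from 0.72 to 0.90. The sign turned within this range for *GLK1* (-0.40 to 0.042), *TDH1* (-0.064 to 0.16), *TDH2* (-0.0050 to 0.14), *TDH3* (-0.026 to 0.14), *ENO1* (-0.16 to 0.023) and *CDC19* (-0.19 to 0.017). On the deposited scale it turned for *TDH1* (-0.15), *TDH2* (-0.12), *TDH3* (-0.14) and *GCR1* (-0.046), and after quantile normalization for *PGK1* (0.088), *ENO1* (0.039) and *CDC19* (0.10). The cause was not tested. The other members kept their sign under all of these settings.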
